A study of Mus musculus with 12 samples.

Results

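The genes described here are 34 sarcomere and Z-disc genes, taken by symbol from the 17471 genes that the left ventricle libraries list, and all 34 had enough counts to be tested. They were read in 12 RNA sequencing libraries of mouse left ventricle, 3 in each of 4 groups, taken at day 4 after surgery. All mice carried floxed Yap alleles, were 6 to 10 weeks old and ate a diet with tamoxifen citrate from the time of surgery. Cre-positive mice also had a copy of MerCreMer, a recombinase that acts only with tamoxifen, under the endogenous periostin (Postn) promoter, and their Cre-negative siblings had wildtype Postn. The groups are each genotype after myocardial infarction (MI), made by tying off the left anterior descending artery for good, and each genotype after sham surgery. The Postn promoter directs the recombinase to activated fibroblasts. The genes described here are known chiefly from striated muscle, though some, such as Pdlim5, Des and Flnc, are also made in other cell types, and the cell they were read from was not measured in whole ventricle. The labels do not say whether replicates are separate animals, so p-values measure the spread between these libraries, which may be technical.

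The sarcomere is the contractile unit of striated muscle, in which myosin thick filaments slide along actin thin filaments. Thin filaments are anchored crosswise in the Z-disc and thick filaments are tied together in the M-band, while titin spans from one to the other as a spring. Troponin on the thin filament switches contraction on with calcium, and a ring of desmin, filamin C and Xin proteins links Z-discs to each other and to the cell junctions. In the injured heart, Z-disc and Xin proteins are known to respond to stretch and to sites of myofibril damage.

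Total expected counts, the read estimates per gene, ran from 10257675 to 15176286 per library. Levels are given as CPM (counts scaled to library size by TMM) where 1 gene is compared across libraries, and as FPKM (fragments scaled to library size and transcript length) where genes are compared with each other. Yap1 had 84.5 to 96.7 CPM in the MI libraries and 101 to 122 in sham libraries, with a log2 difference between genotypes of 0.015 ± 0.087 after MI (adjusted p = 0.971). Whole-gene counts do not show the floxed part. Postn had 603 to 674 CPM in Cre-positive against 1533 to 1731 in Cre-negative MI libraries, without overlap (adjusted p = 0.2015). Cre-positive sham replicate 2 stood apart from the other 11 libraries, at 57.8 on the principal component with 7.6% of the variance against -21.4 to 14.7. It had 33998 CPM of the slow myosin gene Myh7, against 375 to 2930.2 in the other sham libraries, so the injury results of the 34 genes in Cre-positive hearts are also given without it. Y-linked genes had reads in all 3 libraries of the Cre-negative MI group, in 2 of the Cre-negative sham group, in 1 of the Cre-positive MI group and in none of the Cre-positive sham group. Myl2, the ventricular light chain, had at least 3759 CPM in every library. Of the atrial markers, Bmp10 did not pass 0.0809 CPM in any library and Sln, Myl7 and Myl4 did not pass 14.2, 38.9 and 43.1 CPM, while Nppa and Dkk3 were higher after MI.

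Promoter sequences, the 250 bases before each start site, were taken from RefSeq (build GRCm38.p6) for 29 of the 34 genes, in 42 windows. Myom2, Tcap, Myot, Nexn and Xirp1 had no entry. The windows were searched on both strands for the M-CAT motif CATTCC, which TEAD proteins, the partners of Yap, bind, and for the E-box CANNTG, the CArG box and the MEF2 site, which muscle transcription factors bind. A MEF2 site stood in 7 of the 42 windows (16.7%, against 2.92% of all 32851 promoters) and a CArG box in 5 (11.9% against 1.47%). M-CAT stood in 9 windows (21.4% against 12.6%), those of Ankrd23, Flnc, Myl3, Mylk3, Nebl, Pdlim3, Tmod1, Tnnc1 and Tnnt2. E-boxes stood in 31 (73.8% against 66.2%). A match describes letters and is not a bound site. The windows below, read 5′ to 3′ on the gene's strand with M-CAT, CArG box and MEF2 matches in capitals, belong to genes that the results turn on. Xirp2 and Pdlim3 rose most after MI in Cre-negative hearts, Myl3 and Myoz2 are examples of genes that fell, and Synpo2l has 2 windows in the promoter table and a transcript length that differed between surgeries. Xirp2 has a MEF2 match at -74 to -65 from its start, and Pdlim3 has M-CAT matches at -201 to -196 on the other strand and at -11 to -6. Myl3 holds 2 M-CAT matches and a CArG box at -85 to -76, Myoz2 a MEF2 match at -33 to -24, and Synpo2l a MEF2 match in each window, at -109 to -100 and -144 to -135.
Xirp2 (chr2:67445752-67446001, plus strand): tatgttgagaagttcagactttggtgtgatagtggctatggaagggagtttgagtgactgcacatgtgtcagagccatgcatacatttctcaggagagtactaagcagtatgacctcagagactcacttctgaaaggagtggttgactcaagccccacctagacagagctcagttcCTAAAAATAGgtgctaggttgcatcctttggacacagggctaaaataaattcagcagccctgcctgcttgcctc
Pdlim3 (chr8:45885237-45885486, plus strand): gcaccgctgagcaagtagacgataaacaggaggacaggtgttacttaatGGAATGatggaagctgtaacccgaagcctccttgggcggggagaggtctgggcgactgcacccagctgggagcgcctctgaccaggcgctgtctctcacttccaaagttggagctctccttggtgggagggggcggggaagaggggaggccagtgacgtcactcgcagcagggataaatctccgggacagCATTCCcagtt
Synpo2l first window (chr14:20668355-20668604, minus strand): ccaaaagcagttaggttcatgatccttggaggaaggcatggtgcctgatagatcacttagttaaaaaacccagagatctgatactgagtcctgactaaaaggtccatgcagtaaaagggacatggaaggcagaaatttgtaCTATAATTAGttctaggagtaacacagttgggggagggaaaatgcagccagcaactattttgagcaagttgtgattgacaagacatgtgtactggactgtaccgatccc
Synpo2l second window (chr14:20664575-20664824, minus strand): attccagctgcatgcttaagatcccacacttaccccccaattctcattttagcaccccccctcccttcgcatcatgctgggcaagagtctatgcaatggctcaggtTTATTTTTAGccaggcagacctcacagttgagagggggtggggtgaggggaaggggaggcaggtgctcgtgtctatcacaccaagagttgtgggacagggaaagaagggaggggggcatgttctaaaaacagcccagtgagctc
Myl3 (chr9:110763428-110763677, plus strand): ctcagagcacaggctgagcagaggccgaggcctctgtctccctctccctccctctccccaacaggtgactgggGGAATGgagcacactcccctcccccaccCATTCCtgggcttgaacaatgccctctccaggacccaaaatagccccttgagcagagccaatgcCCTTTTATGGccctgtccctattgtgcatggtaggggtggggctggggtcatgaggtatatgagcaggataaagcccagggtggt
Myoz2 (chr3:123034988-123035237, minus strand): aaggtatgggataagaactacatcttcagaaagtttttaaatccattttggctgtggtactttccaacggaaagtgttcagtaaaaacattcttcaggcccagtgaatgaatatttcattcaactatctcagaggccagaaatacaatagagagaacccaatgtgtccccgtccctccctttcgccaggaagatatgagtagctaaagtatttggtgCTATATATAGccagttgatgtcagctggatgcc

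The 34 genes covered a wide range of levels in the uninjured heart. In Cre-negative sham libraries the ventricular regulatory light chain Myl2 was highest, at 15071 ± 582 FPKM (mean ± SD, n = 3), followed by cardiac troponin T (Tnnt2) at 10142 ± 551 FPKM. Cardiac troponin I (Tnni3) stood at 6393 ± 183 and the essential light chain Myl3 at 6198 ± 569 FPKM, so these neighbours did not differ beyond their spread. Cardiac troponin C (Tnnc1) had 3459 ± 138, titin-cap (Tcap) 2066 ± 383 and desmin (Des) 1086 ± 125 FPKM. At the other end were myotilin (Myot) at 10.1 ± 1.03 FPKM, the PDZ-LIM gene Pdlim3 at 8.41 ± 0.578, myomesin 3 (Myom3) at 1.05 ± 0.0586 and slow skeletal troponin I (Tnni1) at 0.623 ± 0.323 FPKM. Summed over all 34 genes, the level of the sham libraries was 66233 to 78662 CPM (Cre-negative) and 71917 to 77859 CPM (Cre-positive). MI libraries had 37872 to 45722 CPM (Cre-negative) and 48156 to 53963 CPM (Cre-positive). The sham and MI ranges did not overlap in either genotype, and neither did the MI ranges of the 2 genotypes.

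In Cre-negative hearts, most of these genes were lower after infarction and a small set was higher. A gene is called here when its adjusted p over all 13678 genes tested is under 0.05. Of the 34, 23 fell (24.4% of all genes tested fell) and 6 rose (29.9% rose), and the median log2 fold change was -0.75 against 0.024 over all genes. Tnni1, Nexn, Des, Nrap and Xirp1 were not called. All 3 MI libraries lay below all 3 sham libraries in 26 of the 34 (31.3% of all genes tested) and above them in 6 (36.4%). The 6 risers were Pdlim3, Xirp2, Ankrd23, Synpo2l, Pdlim5 and Flnc. By the authors' deposited table, 26 fell (21.7% of its genes) and 6 rose (23.3%). Leaving out Cre-negative sham replicate 2, Cre-negative MI replicate 2 or Cre-negative MI replicate 3 each left 2 risers, Pdlim3 and Xirp2. On raw library totals 19 fell (13.4% of all genes) and 7 rose (41.2%), and with limma on deposited FPKM 19 fell (14.6%) and 7 rose (41.9%), with Des among the risers on both. Csrp3, Mybpc3, Myot and Tnnc1 lost their calls on both. With the presence of Y-linked reads as a covariate, 22 fell and 4 rose, Myot, Pdlim5 and Synpo2l losing their calls. The share of all genes called in that fit is not given.

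In Cre-positive hearts, 19 fell (19.5% of all genes tested) and 1, Xirp2, rose (25.7%), with a median of -0.48 against 0.015 over all genes. MI libraries lay below sham libraries in 17 (22.0%) and above them in 2 (29.1%). Without Cre-positive sham replicate 2 the counts were 22 falling (22.1%) and 4 rising (25.6%), the risers then being Xirp2, Tnni1, Pdlim3 and Ankrd23. All 20 calls made with it were kept, Mybpc3, Tcap and Tnnc1 joined the falling genes, and Myl2, Tnni3, Mylk3 and Xirp1 changed by -1.06, -1.09, -0.75 and -0.56 on the log2 scale. Leaving it out also gave 26 falling genes in Cre-negative hearts. By the authors' deposited table, 19 fell (13.0% of its genes) and 1 rose (16.5%). On raw library totals 10 fell (8.39% of all genes) and 2 rose (36.4%), Xirp2 and Pdlim5. With limma on deposited FPKM 10 fell (8.94%) and 3 rose (37.1%), Ankrd23 as well. Both of these scales put the median of all genes above 0, at 0.24 on raw totals and 0.19 on log2(FPKM + 1), with the median of the 34 at -0.26 and -0.25. Csrp3, Myom1, Myot, Nrap, Smyd1, Tmod1, Tnnt1, Tnnt2 and Ttn were not called on either. With the Y-linked reads as a covariate 17 fell and 1 rose, Tnnt1 and Tnnt2 losing their calls. With only the groups compared in the fit, 14 fell and 1 rose, and Csrp3, Myot, Nrap, Tnnt1 and Tnnt2 lost their calls. The shares of all genes called in these fits are not given. Pdlim5 also joined Xirp2 without Cre-negative MI replicate 1. Of the 34 genes, 17 fell in both genotypes and 1 rose in both. None of the 34 was called in opposite directions. The share of all genes called the same way in both genotypes is not given here. These counts are therefore not shown to be particular to the 34.

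Markers of several cell types moved with infarction beside these genes. Of 24 heart muscle genes outside the sarcomere, such as phospholamban (Pln) and myoglobin (Mb), 21 fell in Cre-negative and 16 in Cre-positive hearts, with medians of -0.94 and -0.62. Their summed level went from 69687 to 75675 CPM in sham to 28798 to 36483 in MI libraries of Cre-negative hearts, and from 60784 to 78581 to 41499 to 49443 CPM in Cre-positive hearts. Of 8 macrophage markers 8 rose in each genotype, and their sum went from 78.2 to 270.04 CPM over the sham libraries to 1305 to 2086 over the MI libraries. Of 10 fibroblast markers 9 rose in each genotype, with sums of 904 to 2228 CPM in sham and 11958 to 17907 in MI libraries. Of 10 smooth muscle and pericyte markers 4 rose and 3 fell in Cre-negative hearts, and 3 rose and 2 fell in Cre-positive hearts. The contractile genes Cnn1, Tagln and Acta2 rose by 4.09, 3.33 and 2.26 in Cre-negative and by 3.88, 3.08 and 1.82 in Cre-positive hearts, and the pericyte channel genes Abcc9 and Kcnj8 were at -1.60 and -0.79 and at -0.93 and -0.59. Of 8 endothelial markers 1 rose and 1 fell in Cre-negative and 2 fell in Cre-positive hearts, with Flt1, a receptor for VEGF, at -0.82 and -0.78. Of 6 atrial markers 5 were tested and 2, Nppa and Dkk3, rose in each genotype, and the list's sum was 349.6 to 1351 CPM over the sham and 2402 to 3536 over the MI libraries. Nppa alone had 332 to 1230 CPM in sham and 2300 to 3470 in MI libraries. In whole ventricle, fewer heart muscle cells and less RNA of a gene per cell cannot be told apart. The part of these cell types in the changes described here was not tested.

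**Figure D1:**
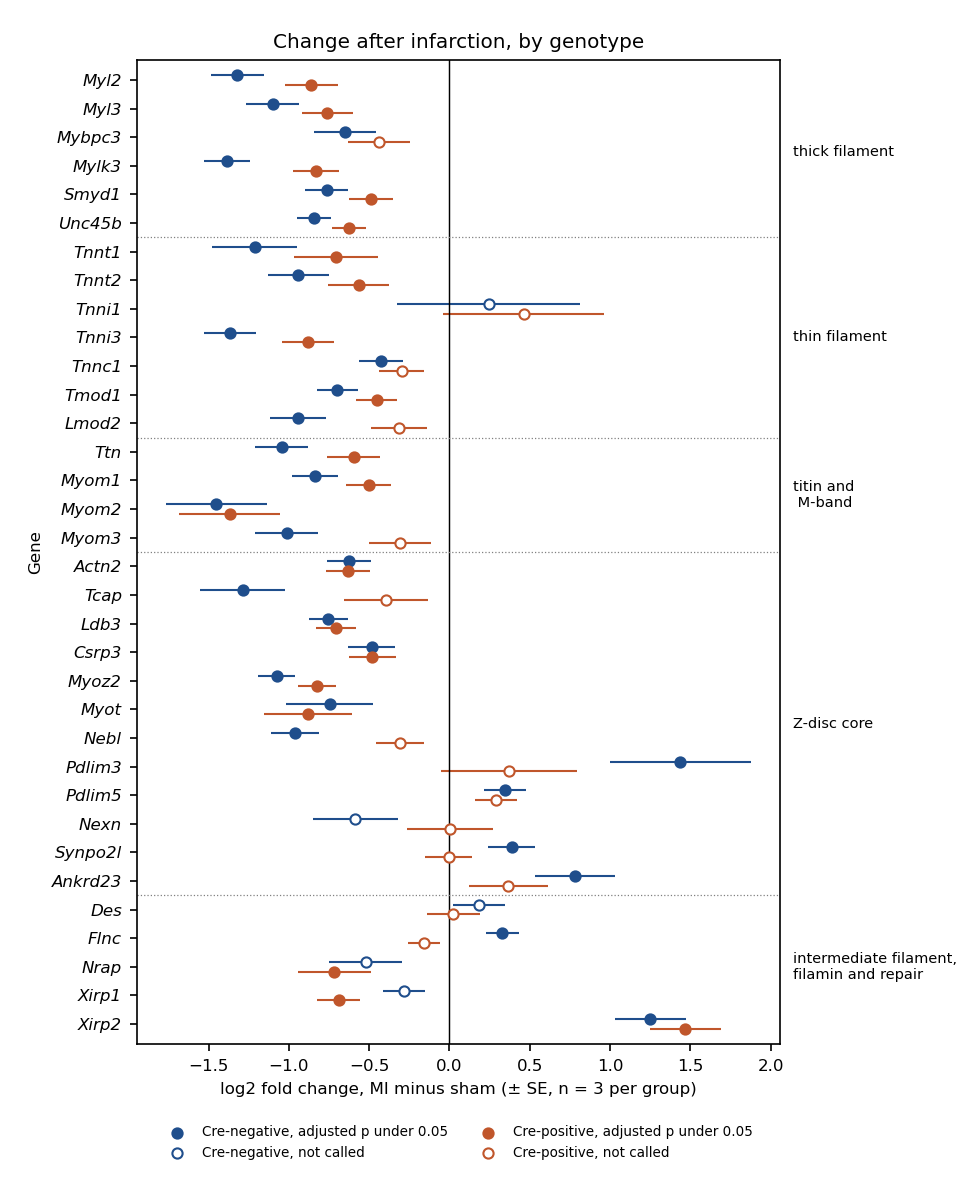
Log2 fold change after MI (x axis, ± SE, n = 3 per group) of each of the 34 genes (y axis, grouped by role) in Cre-negative (blue) and Cre-positive (orange) hearts; filled points have an adjusted p under 0.05. Most points lie left of 0, and Xirp2 is the gene filled on the right in both genotypes.

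Among the 6 thick filament genes, 6 fell in Cre-negative and 5 in Cre-positive hearts. The light chain gene Myl2 (Entrez 17906, chromosome 5, 122092724 to 122113473) stabilises the myosin neck. It had 11018, 9602 and 10859.5 CPM in Cre-negative sham, 11171, 7871 and 12123 in Cre-positive sham, 3759, 4180.0 and 4708 in Cre-negative MI and 5358, 6124 and 5658 in Cre-positive MI libraries 1 to 3. The MI libraries lay below all sham libraries in both genotypes, and Cre-positive sham replicate 2 was the lowest of the sham libraries. Myl2 fell by 1.32 ± 0.17 on the log2 scale in Cre-negative hearts (SE, n = 3 per group, adjusted p = 3.46e-05) and fell by 0.86 ± 0.16 in Cre-positive hearts (adjusted p = 0.00115). Mylk3 (Entrez 213435, chromosome 8, 85324928 to 85386340) encodes the cardiac kinase that phosphorylates this light chain. It had 861, 750.3 and 821 CPM in Cre-negative sham, 696, 932 and 793 in Cre-positive sham, 291, 275 and 369 in Cre-negative MI and 468, 491 and 401 in Cre-positive MI libraries 1 to 3. No MI library reached the lowest sham library, and the lowest Cre-positive MI library was above the highest Cre-negative one. Mylk3 fell by 1.39 ± 0.15 in Cre-negative (adjusted p = 8.39e-06) and fell by 0.83 ± 0.14 in Cre-positive hearts (adjusted p = 0.000581), which is 2.61-fold and 1.78-fold lower.

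The essential light chain Myl3 fell by 1.10 ± 0.16 and fell by 0.76 ± 0.16 on the log2 scale in Cre-negative and Cre-positive hearts. Unc45b, a chaperone for folding of the myosin head, fell by 0.84 ± 0.10 and fell by 0.62 ± 0.10. Smyd1, a methyltransferase needed for myofibril assembly, fell by 0.76 ± 0.14 and fell by 0.49 ± 0.14. All of these were called in both genotypes, though Smyd1 lost its call in Cre-positive hearts without Cre-positive MI replicate 3. Cardiac myosin binding protein C (Mybpc3), which regulates cross-bridge cycling, fell by 0.65 ± 0.19 in Cre-negative hearts (adjusted p = 0.0134). Its log2 change in Cre-positive hearts was -0.44 ± 0.19 (adjusted p = 0.0824), and -0.68 ± 0.15 (adjusted p = 0.00238) without Cre-positive sham replicate 2. The Mybpc3 call in Cre-negative hearts was lost without Cre-negative sham replicate 3 or Cre-negative MI replicate 1, on raw library totals and with limma on FPKM.

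Of the 7 thin filament genes, 6 fell in Cre-negative and 4 in Cre-positive hearts. The inhibitory subunit of cardiac troponin, Tnni3 (Entrez 21954, chromosome 7, 4518305 to 4522718), had 6178, 6065 and 6251 CPM in Cre-negative sham, 6968, 4491 and 6676 in Cre-positive sham, 2114, 2381 and 2700.1 in Cre-negative MI and 3099, 3515 and 3229.9 in Cre-positive MI libraries 1 to 3. The 3 Cre-negative sham libraries were nearly alike, and each MI library was below each sham library. Tnni3 fell by 1.37 ± 0.16 in Cre-negative hearts (adjusted p = 2.33e-05) and fell by 0.88 ± 0.16 in Cre-positive hearts (adjusted p = 0.000888). Tnnt2 (Entrez 21956, chromosome 1, 135836315 to 135852268), which ties troponin to tropomyosin, had 13730.1, 11489 and 13169 CPM in Cre-negative sham, 9770.2, 16493 and 13494 in Cre-positive sham, 6687, 5901 and 7479.6 in Cre-negative MI and 8109, 10341 and 8393 in Cre-positive MI libraries 1 to 3. In Cre-positive hearts the groups overlapped, since sham replicate 1 lay below MI replicate 2. Tnnt2 fell by 0.94 ± 0.19 in Cre-negative (adjusted p = 0.00131) and fell by 0.56 ± 0.19 in Cre-positive hearts (adjusted p = 0.0294). The latter call was lost without Cre-positive sham replicate 3 or without Cre-positive MI replicate 1 or 3. It was also lost with only the groups compared, with the Y-linked reads as a covariate, on raw library totals and with limma on FPKM.

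The skeletal isoforms were low and did not follow a single direction. Slow skeletal troponin T, Tnnt1 (Entrez 21955, chromosome 7, 4504569 to 4515975), had 14.9, 17.1 and 13.6 CPM in Cre-negative sham, 18.5, 8.32 and 13.2 in Cre-positive sham, 4.98, 6.39 and 8.41 in Cre-negative MI and 7.32, 7.62 and 9.62 in Cre-positive MI libraries 1 to 3. Its lowest sham value was again in Cre-positive sham replicate 2, within the range of the MI libraries. Tnnt1 fell by 1.21 ± 0.26 in Cre-negative (adjusted p = 0.00204) and fell by 0.70 ± 0.26 in Cre-positive hearts (adjusted p = 0.0438). Without Cre-positive sham replicate 2 the latter was -0.99 ± 0.22 (adjusted p = 0.00236), while leaving out any 1 of 8 other libraries ended this call. This Tnnt1 call was also lost with only the groups compared. Slow skeletal troponin I, Tnni1 (Entrez 21952, chromosome 1, 135783033 to 135810989), is the form of the fetal heart. It had 0.564, 0.398 and 1.08 CPM in Cre-negative sham, 0.404, 2.10 and 0.618 in Cre-positive sham, 0.811, 0.689 and 0.935 in Cre-negative MI and 1.29, 1.34 and 1.66 in Cre-positive MI libraries 1 to 3, which is 4 to 25 reads per library. Cre-positive sham replicate 2 held the highest value of all 12 libraries, and no change of Tnni1 was called (adjusted p = 0.74 and 0.481). Without that library its log2 change in Cre-positive hearts was 1.46 ± 0.46 (adjusted p = 0.0191).

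The balance of isoforms within a library was compared as a log2 ratio of FPKM. Tnni1 made up 0.00486% to 0.0396% of the summed Tnni1 and Tnni3 FPKM in sham and 0.0257% to 0.0433% in MI libraries. The ratio was 1.72 higher on the log2 scale after MI, with p = 0.015 by an exact two-sided permutation test within genotype (adjusted p = 0.06 over 4 such tests, 0.005 being the smallest p it can give). Sham and MI libraries overlapped through Cre-positive sham replicate 2 alone, and without it the difference was 2.16 (exact permutation test, adjusted p = 0.02). Leaving out any 1 MI library gave an adjusted p of 0.12 to 0.14 by this test. By edgeR's test Tnni3 changed by -1.37 and -0.88 on the log2 scale in Cre-negative and Cre-positive hearts. The values of Tnni1, not called, were 0.24 and 0.46. Tnnt1 made up 0.0590% to 0.221% of the summed Tnnt1 and Tnnt2 FPKM in sham and 0.0862% to 0.133% in MI libraries. Its log2 ratio differed by -0.20 after MI (exact permutation test, p = 0.535, adjusted p = 0.6). Between genotypes the differences were 0.36 for Tnni1 to Tnni3 and -0.18 for Tnnt1 to Tnnt2 (adjusted p = 0.6 for both by the exact permutation test).

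Tropomodulin 1 (Tmod1), which caps the slow-growing end of the thin filament, fell by 0.70 ± 0.13 and fell by 0.45 ± 0.13 on the log2 scale in Cre-negative and Cre-positive hearts, both called. Leiomodin 2 (Lmod2), which lengthens that end, fell by 0.94 ± 0.18 in Cre-negative hearts (adjusted p = 0.000686) and its value in Cre-positive hearts was -0.31 ± 0.17 (adjusted p = 0.164), or -0.19 ± 0.16 (adjusted p = 0.353) without Cre-positive sham replicate 2. Troponin C (Tnnc1), the calcium sensor, fell by 0.43 ± 0.14 in Cre-negative hearts (adjusted p = 0.0211), a call lost without Cre-negative sham replicate 3 or Cre-negative MI replicate 1 or 2, and also on raw library totals and with limma on FPKM. In Cre-positive hearts it stood at -0.30 ± 0.14 (adjusted p = 0.0986), and at -0.40 ± 0.14 (adjusted p = 0.0308) without Cre-positive sham replicate 2. In Cre-negative hearts the thin filament genes called differed in size, from troponin I with the largest fall to troponin C with the smallest.

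All 4 titin and M-band genes fell in Cre-negative hearts and 3 fell in Cre-positive hearts. Myomesin 2, Myom2 (Entrez 17930, chromosome 8, 15057653 to 15133420), crosslinks thick filaments in the M-band. It had 3895, 2637 and 3135 CPM in Cre-negative sham, 2905, 6779 and 3343 in Cre-positive sham, 1477, 1027 and 1038 in Cre-negative MI and 1787, 2058 and 1195 in Cre-positive MI libraries 1 to 3. Cre-positive sham replicate 2 lay far above every other library, and the highest MI library stayed below the lowest sham library. Myom2 fell by 1.45 ± 0.31 in Cre-negative hearts (adjusted p = 0.00196), the largest fall of the 34. It fell by 1.37 ± 0.31 in Cre-positive hearts (adjusted p = 0.00368), and its change was -0.93 ± 0.23 (adjusted p = 0.00463) without that library. Its paralog Myom1 fell by 0.84 ± 0.14 and fell by 0.50 ± 0.14, and titin (Ttn) fell by 1.04 ± 0.17 and fell by 0.60 ± 0.16, all called. The Ttn call in Cre-positive hearts was lost without Cre-positive MI replicate 1, and the Myom1 call without Cre-positive MI replicate 3. Myom3, the myomesin of slow muscle, had 2.67 to 6.49 CPM over all libraries and fell by 1.01 ± 0.20 in Cre-negative hearts (adjusted p = 0.000907). Its Cre-positive value was -0.31 ± 0.19 (adjusted p = 0.213).

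The 12 Z-disc genes split, with 7 falling and 4 rising in Cre-negative hearts and 5 falling in Cre-positive hearts. Alpha-actinin 2 (Actn2), the crosslinker of the disc, fell by 0.63 ± 0.14 and fell by 0.63 ± 0.14 on the log2 scale. Ldb3 (Cypher), which binds it, fell by 0.76 ± 0.12 and fell by 0.71 ± 0.12, and both genes were called in both genotypes. Calsarcin 1 (Myoz2), a Z-disc protein that binds calcineurin, had 1403, 1217 and 1249 CPM in Cre-negative sham, 1242, 1588 and 1289 in Cre-positive sham, 595, 594 and 651 in Cre-negative MI and 784, 813 and 725 in Cre-positive MI libraries 1 to 3. Its MI libraries were all below its sham libraries, and it fell by 1.08 ± 0.12 (adjusted p = 1.15e-05) and fell by 0.82 ± 0.12 (adjusted p = 0.000135). Muscle LIM protein (Csrp3), linked to stretch sensing, fell by 0.48 ± 0.15 and fell by 0.48 ± 0.15, also called in both genotypes. The Csrp3 call in Cre-negative hearts was lost without Cre-negative MI replicate 2, on raw library totals and with limma on FPKM. In Cre-positive hearts it was lost without Cre-positive MI replicate 3, on both of those scales and with only the groups compared.

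Titin-cap (Tcap), which joins titin ends at the disc, fell by 1.29 ± 0.27 in Cre-negative hearts (adjusted p = 0.00144). Its Cre-positive value was -0.39 ± 0.26 (adjusted p = 0.241), and -0.69 ± 0.21 (adjusted p = 0.0153) without Cre-positive sham replicate 2, which had 993 CPM against 1734 to 2544 in the other sham libraries. Nebulette (Nebl), the cardiac relative of nebulin, fell by 0.96 ± 0.15 in Cre-negative hearts (adjusted p = 0.000196), against -0.31 ± 0.15 in Cre-positive hearts (adjusted p = 0.113). Myotilin (Myot), an actin-bundling protein of the disc, had 23.5, 21.1 and 26.7 CPM in Cre-negative sham, 12.8, 27.5 and 24.7 in Cre-positive sham, 10.2, 15.3 and 17.2 in Cre-negative MI and 10.0, 10.4 and 14.7 in Cre-positive MI libraries 1 to 3. Cre-positive sham replicate 1 lay among the MI libraries. Myot fell by 0.75 ± 0.27 in Cre-negative (adjusted p = 0.034) and fell by 0.88 ± 0.27 in Cre-positive hearts (adjusted p = 0.0201). The Cre-negative call was lost without any 1 of Cre-negative sham replicates 1 and 3 and Cre-negative MI replicates 1 and 2, on raw library totals and with limma on FPKM. The Cre-positive call was lost without Cre-positive sham replicate 3 or Cre-positive MI replicate 1 or 2. It was also lost with only the groups compared, on raw library totals and with limma on FPKM. Nexilin (Nexn), an actin-binding protein of the disc, was not called, at -0.59 ± 0.27 and 0.0029 ± 0.27 (adjusted p = 0.0809 and 0.994). In Cre-positive hearts Nexn stood at 0.31 ± 0.22 (adjusted p = 0.281) and Myot at -0.69 ± 0.27 (adjusted p = 0.0499) without Cre-positive sham replicate 2.

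Pdlim3 (Entrez 53318, chromosome 8, 45885487 to 45919635), a PDZ-LIM protein that binds alpha-actinin, had the largest rise in Cre-negative hearts. It had 15.7, 13.1 and 13.5 CPM in Cre-negative sham, 13.4, 54.1 and 13.3 in Cre-positive sham, 48.6, 31.1 and 35.2 in Cre-negative MI and 34.5, 37.5 and 32.6 in Cre-positive MI libraries 1 to 3. The 5 other sham libraries stood between 13.1 and 15.7, and Cre-positive sham replicate 2 was the highest of all 12, 3.45-fold above the next sham library. In Cre-negative hearts Pdlim3 rose by 1.44 ± 0.44 on the log2 scale (adjusted p = 0.0152), or 2.71-fold, and without Cre-negative MI replicate 1 the adjusted p was 0.0583. In Cre-positive hearts its value was 0.37 ± 0.42 (adjusted p = 0.5), and 1.35 ± 0.18 (adjusted p = 6.53e-05) without Cre-positive sham replicate 2. Ankrd23 (Entrez 78321, chromosome 1, 36530193 to 36536556), an ankyrin repeat protein of the titin spring region, had 221, 208 and 221 CPM in Cre-negative sham, 180.2, 380.2 and 188 in Cre-positive sham, 283, 442 and 395 in Cre-negative MI and 309, 338 and 318 in Cre-positive MI libraries 1 to 3. Cre-positive sham replicate 2 lay among the MI libraries, and the other sham libraries lay below all of them. Ankrd23 rose by 0.78 ± 0.25 in Cre-negative hearts (adjusted p = 0.0185), a call lost without Cre-negative sham replicate 2 or Cre-negative MI replicate 2 or 3. In Cre-positive hearts it was 0.37 ± 0.25 (adjusted p = 0.246), and 0.77 ± 0.15 (adjusted p = 0.00101) without that library.

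Synpo2l (Entrez 68760, chromosome 14, 20658945 to 20668354), an actin-bundling Z-disc protein, had 299.9, 203 and 274 CPM in Cre-negative sham, 274, 344 and 294 in Cre-positive sham, 305, 339 and 375 in Cre-negative MI and 313, 275 and 319.7 in Cre-positive MI libraries 1 to 3. The Cre-negative libraries did not overlap between surgeries, with 299.9 as the highest sham and 305 CPM as the lowest MI value, while the Cre-positive ones did. It rose by 0.39 ± 0.15 in Cre-negative hearts (adjusted p = 0.0415), a call lost in 8 of 12 fits that each left out a library. Its value in Cre-positive hearts was -0.0055 ± 0.15 (adjusted p = 0.979), and its sign there differed on raw library totals and FPKM. Without Cre-positive sham replicate 2 it was 0.059 ± 0.15 (adjusted p = 0.771), also above 0. Pdlim5, another PDZ-LIM protein of the disc, rose by 0.34 ± 0.13 in Cre-negative hearts (adjusted p = 0.0425), a call lost in 9 of 12 such fits. In Cre-positive hearts it stood at 0.29 ± 0.13 (adjusted p = 0.0905).

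Of the 5 genes of the intermediate filament, filamin and repair group, 2 rose in Cre-negative hearts, and 1 rose and 2 fell in Cre-positive hearts. Xirp2 (Entrez 241431, chromosome 2, 67446000 to 67526620), a Xin repeat protein of the Z-disc and intercalated disc, had 399, 382 and 375 CPM in Cre-negative sham, 185, 314 and 297 in Cre-positive sham, 783, 887 and 1090.2 in Cre-negative MI and 541, 744 and 917 in Cre-positive MI libraries 1 to 3. Every MI library was above every sham library, and within each surgery Cre-positive sham and MI means were below the Cre-negative ones. Xirp2 rose by 1.25 ± 0.22 in Cre-negative hearts (adjusted p = 0.000456) and rose by 1.47 ± 0.22 in Cre-positive hearts (adjusted p = 0.000209), which is 2.38-fold and 2.77-fold. It kept both calls under all 22 alternative settings. Its relative Xirp1, known from intercalated discs and sites of myofibril damage, had its lower values after MI. Xirp1 had 405, 345 and 333 CPM in Cre-negative sham, 445, 621 and 462 in Cre-positive sham, 298, 321 and 274 in Cre-negative MI and 320.4, 318 and 308 in Cre-positive MI libraries 1 to 3. All MI libraries lay below all sham libraries. Xirp1 fell by 0.69 ± 0.13 in Cre-positive hearts (adjusted p = 0.00121) and was at -0.28 ± 0.13 in Cre-negative hearts (adjusted p = 0.0885).

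Filamin C, Flnc, an actin crosslinker at Z-discs, had 365, 344 and 369.6 CPM in Cre-negative sham, 440.0, 440.4 and 380.3 in Cre-positive sham, 403, 478 and 478 in Cre-negative MI and 358, 367 and 401 in Cre-positive MI libraries 1 to 3. In Cre-negative hearts the MI libraries were the higher, and in Cre-positive hearts the groups overlapped. Flnc rose by 0.33 ± 0.10 in Cre-negative hearts (adjusted p = 0.0164), a call lost without Cre-negative sham replicate 1 or 2 or Cre-negative MI replicate 2 or 3. It was at -0.16 ± 0.10 in Cre-positive hearts (adjusted p = 0.223), and above 0 there on raw library totals and FPKM. Nrap, a scaffold of newly forming myofibrils, fell by 0.72 ± 0.23 in Cre-positive hearts (adjusted p = 0.0217), and the change was -0.35 ± 0.13 (adjusted p = 0.0367) without Cre-positive sham replicate 2. This call was lost without Cre-positive MI replicate 1 or 3, with only the groups compared, on raw library totals and with limma on FPKM. In Cre-negative hearts Nrap was at -0.52 ± 0.23 (adjusted p = 0.0687). Des, the intermediate filament of muscle, stayed uncalled at 0.18 ± 0.16 and 0.024 ± 0.16 (adjusted p = 0.363 and 0.92), with 3083 to 5167 CPM over all libraries. The Cre-positive value of Des was 0.17 ± 0.14 (adjusted p = 0.332) without Cre-positive sham replicate 2.

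**Figure D2:**
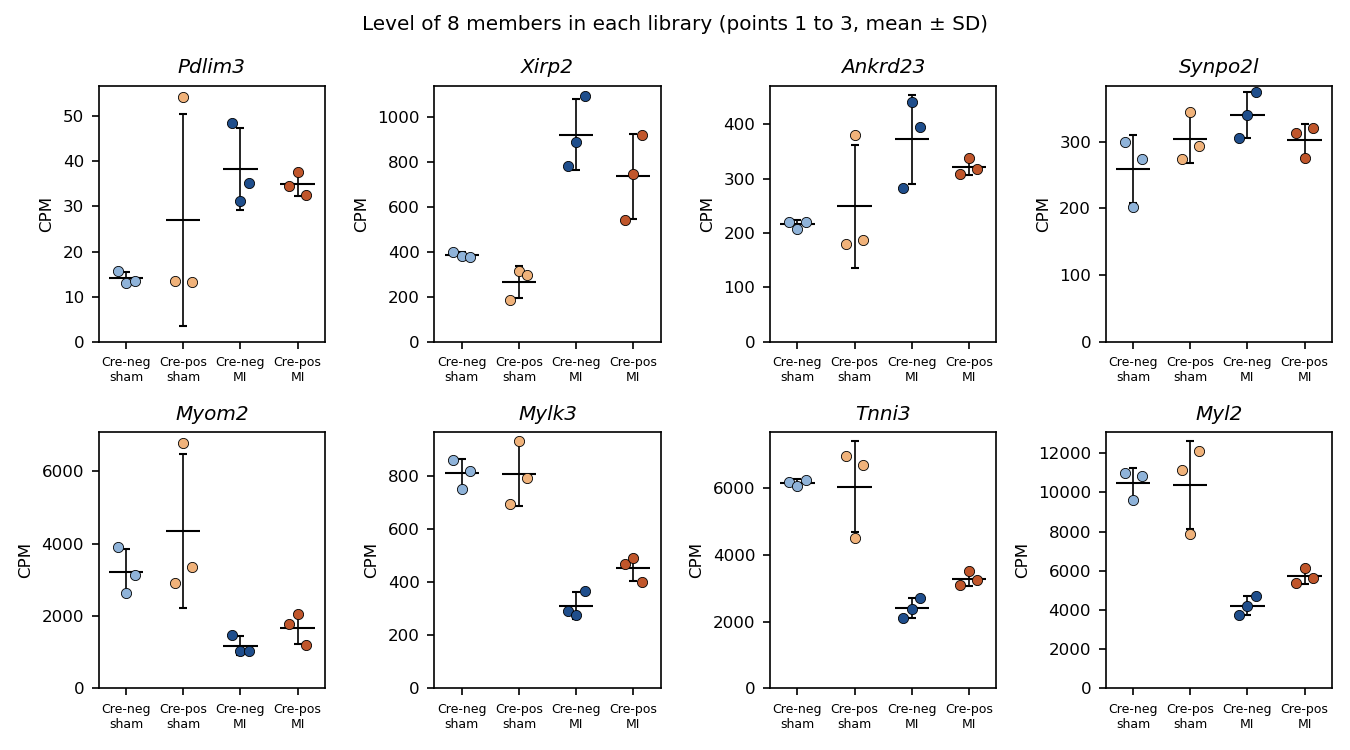
CPM (y axis) of 8 genes in each library, with group on the x axis, points for libraries 1 to 3 and the mean ± SD of each group. Pdlim3 and Xirp2 are higher in MI libraries and Myom2, Mylk3, Tnni3 and Myl2 lower; the single high sham point of Pdlim3, at 54.1 CPM, is Cre-positive sham replicate 2.

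Cre-positive sham replicate 2 differed from the other sham libraries in many of these genes. It lay above the other 5 sham libraries in 18 of the 34, below them in 10 and within their range in 6. The share of all genes outside that range is not given here. This library also stood apart over all genes tested, so the counts are not shown to be particular to the 34. Pdlim3 was 3.92 times the mean of the other sham libraries, Tnni1 3.43 times and Myom2 2.13 times. Nrap had 1607 CPM against 726 to 1011, Ankrd23 380.2 against 180.2 to 221, and Des 5167 against 3083 to 4159. These genes belong to several roles, and the Z-disc genes were not all high in that library. On the low side were Tcap at 0.495 times the mean of the other sham libraries, Tnnt1 at 0.538 times, Mybpc3 at 0.666 times and Tnni3 at 0.699 times. Xirp2, the gene that rose in both genotypes, was within the sham range at 314 CPM. Macrophage markers summed to 78.2 CPM in Cre-positive sham replicate 2, against 189 to 270.04 in the other sham libraries, and atrial markers to 1351 against 349.6 to 631. Most of the atrial sum is Nppa, which reached 1230 CPM in sham libraries, against at most 43.1 for any other gene of that list. Myh6, the fast myosin, was at 14308 CPM in Cre-positive sham replicate 2 and at 39712 to 53072 in the other sham libraries. The part of these in the pattern of that library was not tested.

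The remaining injury values of Cre-positive hearts were also computed without that library. On the log2 scale they were, for the thick filament, Myl3 -0.95, Unc45b -0.73, Smyd1 -0.63, for the thin filament, Tmod1 -0.60, Tnnt2 -0.41, and for titin and the M-band, Myom1 -0.42, Ttn -0.68, Myom3 -0.43. For the Z-disc they were Actn2 -0.54, Ldb3 -0.70, Myoz2 -0.74, Csrp3 -0.35, Nebl -0.28, Pdlim5 0.32. Flnc was at -0.16 and Xirp2 at 1.58 ± 0.23 (adjusted p = 0.000123). Of these, Myom3, Nebl, Pdlim5 and Flnc were not called, with it or without it, and the others were called both ways.

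**Figure D3:**
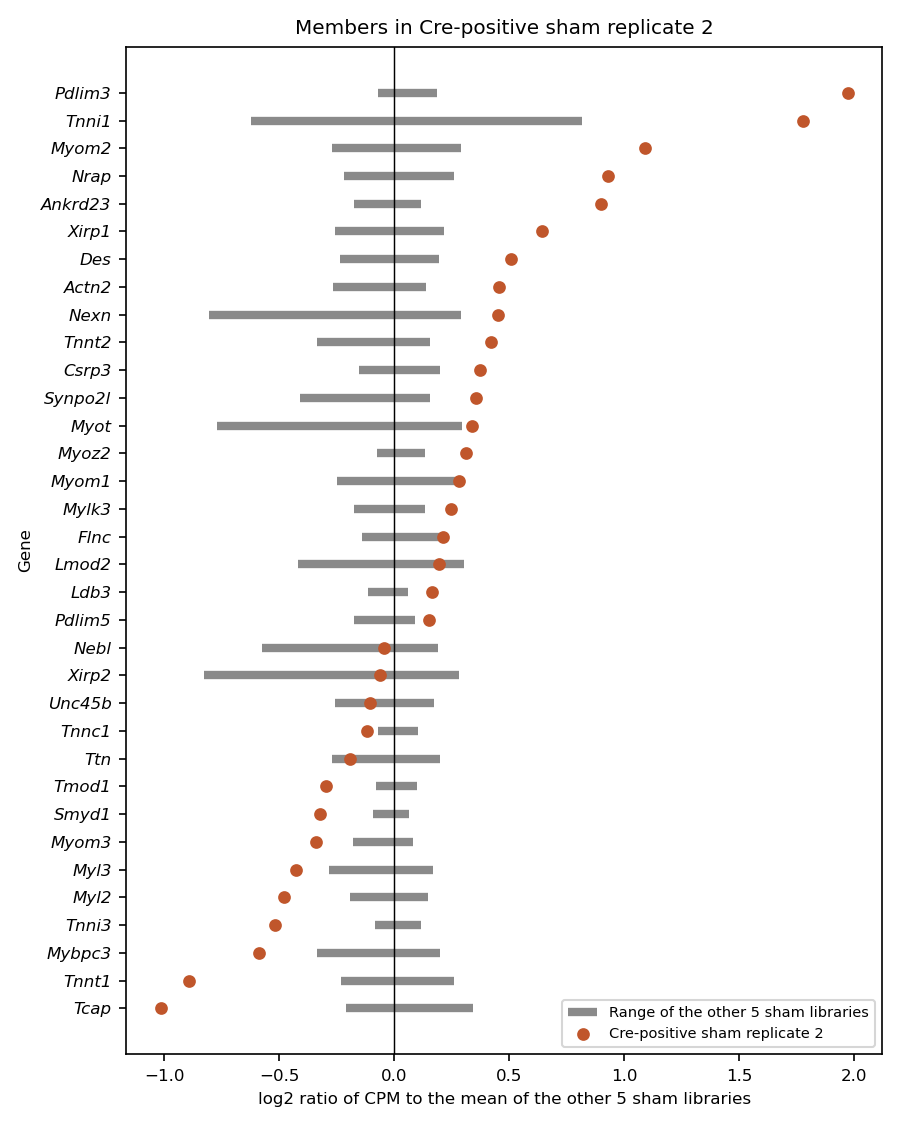
Log2 ratio of CPM in Cre-positive sham replicate 2 to the mean of the other 5 sham libraries (x axis) for each of the 34 genes (y axis), with the range of those 5 libraries as a grey bar. Points outside the bar are 18 above and 10 below, with Pdlim3 at the top and Tcap at the bottom. The share of all genes outside that range is not given.

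RSEM also gives each gene a transcript length weighted by the abundance of its isoforms, which moves only when the mix of isoforms does. This measure was looked at after the other results were seen. In 29 of the 34 genes it varied by less than 1% over the 12 libraries, and in 3, Ldb3, Synpo2l and Pdlim5, by 5% or more. Many of the 29, such as Myl2, Tnni3 and Des, have 1 counted transcript, so their length could not vary. The number 29 therefore does not show a stable mix of isoforms. Synpo2l was 4171, 4209 and 4218 bases in Cre-negative sham, 4231, 4086 and 4263 in Cre-positive sham, 3837, 3899 and 3921 in Cre-negative MI and 3904, 3960.03 and 3937 in Cre-positive MI libraries. Each MI library was shorter than each sham library. Of all 1179 genes that varied by 5% or more, 8.57% had MI and sham libraries without overlap. The counted transcripts of Synpo2l are 4394, 3979 and 3696 bases long. The first 2 begin at 20668306 and 20668354 on chromosome 14, and the shortest begins at 20664574, beside the second window printed above. The weighted length does not say which of them changed.

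The other 2 of these most variable genes, Ldb3 and Pdlim5, overlapped between surgeries. Ldb3 was 2139 to 2392 bases in sham and 2272 to 2418 in MI libraries, and Pdlim5 was 2108 to 2226 in sham and 2153 to 2224 in MI libraries. For Pdlim5 the overlap came from Cre-positive sham replicate 2, since the other sham libraries reached 2129 bases. For Ldb3 it remained without that library, with 2337 bases as the highest of the other sham values. Among the genes that varied less, Mylk3 and Tnnt2 also had each MI library shorter than each sham library. Mylk3, with a range of 1.85%, was 2977 to 2995 bases in sham and 2941 to 2970 in MI libraries. Tnnt2, with a range of 0.416%, was 1194.3 to 1197.2 in sham and 1192.2 to 1193.9 in MI libraries. The share of all such less variable genes without overlap is not given.

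**Figure D4:**
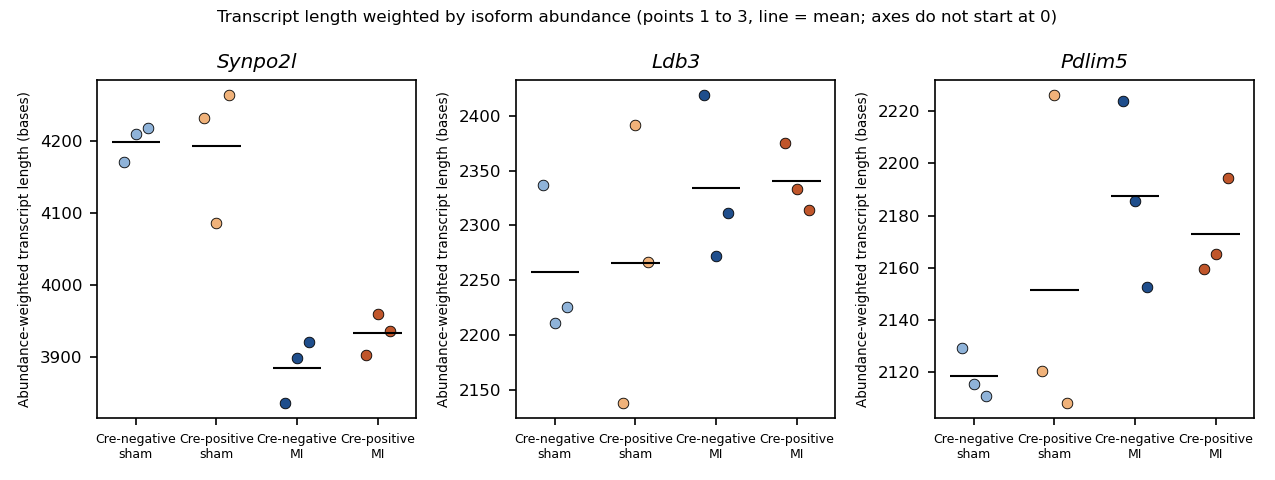
Transcript length weighted by isoform abundance (y axis, bases, not starting at 0) of Synpo2l, Ldb3 and Pdlim5 by group (x axis), with points for libraries 1 to 3 and a line at the mean. For Synpo2l the sham points lie at 4086 to 4263 and the MI points at 3837 to 3960.03 bases.

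After MI, Cre-positive and Cre-negative hearts were compared directly, the question being whether genotype goes with a difference in the injured ventricle. The genotypes differ in the recombinase, in the Postn allele and in any deletion of floxed Yap, and these cannot be told apart here. Y-linked reads, which mark male tissue, were in 3 Cre-negative MI libraries and in 1 Cre-positive MI library. Sex is thus in part confounded with genotype. None of the 34 genes was called by edgeR's quasi-likelihood test, and 0 of the 13678 genes tested were (0.0%). At an unadjusted p under 0.05 there were 12 (12.6% of all genes), of which 11 were higher (5.69%) and 1, Flnc, was lower in Cre-positive hearts. By DESeq2 1 was called, Mylk3 (adjusted p = 0.0278), among 177 genes, and by limma 0 of the 34. This comparison shares its Cre-negative MI libraries with the injury comparison above. In 27 of the 34 the Cre-positive value was the higher, and the median log2 difference was 0.30 against -0.0072 over all genes. Libraries did not overlap in 13 genes higher in Cre-positive (11.6% of all genes) and 1 lower (15.4%). In the authors' deposited table, 12 of the 34 were higher in Cre-positive MI hearts at an adjusted p under 0.05 (2.21% of its genes) and none was lower (2.23%): Actn2, Lmod2, Myl2, Myl3, Mylk3, Myom1, Myoz2, Nebl, Tcap, Tnni3, Tnnt2 and Unc45b.

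The smallest p-values belonged to genes that act on myosin and to calsarcin. Mylk3 had 291, 275 and 369 CPM in Cre-negative and 468, 491 and 401 in Cre-positive MI libraries. Unc45b had 137, 144 and 157 and 181, 195 and 183 CPM, and Myoz2 595, 594 and 651 and 784, 813 and 725 CPM. In each of these 3 genes the Cre-positive libraries were the higher, without overlap. The log2 differences were 0.54 ± 0.14 for Mylk3 (SE, n = 3 per group, adjusted p = 0.243), 0.35 ± 0.10 for Unc45b (adjusted p = 0.264) and 0.34 ± 0.12 for Myoz2 (adjusted p = 0.289). In the authors' deposited table they were 0.56, 0.37 and 0.35, with adjusted p-values of 0.00142, 0.00473 and 0.00338. By role, all 6 thick filament, all 7 thin filament and all 4 titin and M-band genes had the higher Cre-positive value, with medians of 0.34, 0.42 and 0.44. Of the 12 Z-disc genes 7 did (median 0.10) and of the 5 filament and repair genes 3 (median 0.061). The 7 genes with the lower value were Myot, Pdlim3, Pdlim5, Synpo2l, Ankrd23, Flnc and Xirp2, and on raw library totals Csrp3 and Des joined them.

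In the same comparison, sums of other heart muscle genes and of markers of other cells stood apart between genotypes. All 24 heart muscle genes outside the sarcomere had the higher Cre-positive value, with a median of 0.37, and their sums did not overlap, at 28798 to 36483 CPM in Cre-negative and 41499 to 49443 in Cre-positive MI libraries. Macrophage markers summed to 1802 to 2086 and 1305 to 1527 CPM, lower in Cre-positive for 8 of 8. Fibroblast markers, which include Postn itself, summed to 16151 to 17907 and 11958 to 13232 CPM, lower for 9 of 10. None of these was called by edgeR's test. Reads of Y-linked genes were in all Cre-negative and in 1 of 3 Cre-positive MI libraries. With their presence as a covariate, 28 of the 34 had the higher Cre-positive value and 8 had an unadjusted p under 0.05, all of them higher. Over all 13678 genes, 1328 passed that threshold in this fit, in either direction. The part of these cell markers in the difference between genotypes was not tested.

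After sham surgery, none of the 34 genes was called between genotypes by edgeR's test, by DESeq2 or by limma (7 of all genes, 0.0512%, were called by edgeR's test). The authors' deposited table called 0 of them higher (0.0%) and 0 lower (0.0727%). The median log2 difference was 0.019 against -0.0020 over all genes, and 20 of the 34 had the higher Cre-positive value. That number was 15 without Cre-positive sham replicate 2 (median -0.019) and 14 on raw library totals. Unadjusted p was under 0.05 for 2 (8.22% of all genes), Xirp1 and Xirp2, and 3 genes had Cre-positive libraries all above (5.74%) and 1 all below (5.0%) the Cre-negative ones. Xirp1 had 405, 345 and 333 CPM in Cre-negative and 445, 621 and 462 in Cre-positive sham libraries, and Xirp2 had 399, 382 and 375 and 185, 314 and 297 CPM. The 2 Xin genes thus stood apart in opposite directions. Their log2 differences were 0.49 ± 0.13 (adjusted p = 0.582) and -0.54 ± 0.22 (adjusted p = 0.587), neither of which passed. Without Cre-positive sham replicate 2 they were 0.35 and -0.66 (adjusted p = 0.435 and 0.44). Flnc, a binding partner of Xin proteins, had 365, 344 and 369.6 and 440.0, 440.4 and 380.3 CPM, a difference of 0.22 ± 0.10 (adjusted p = 0.602).

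**Figure D5:**
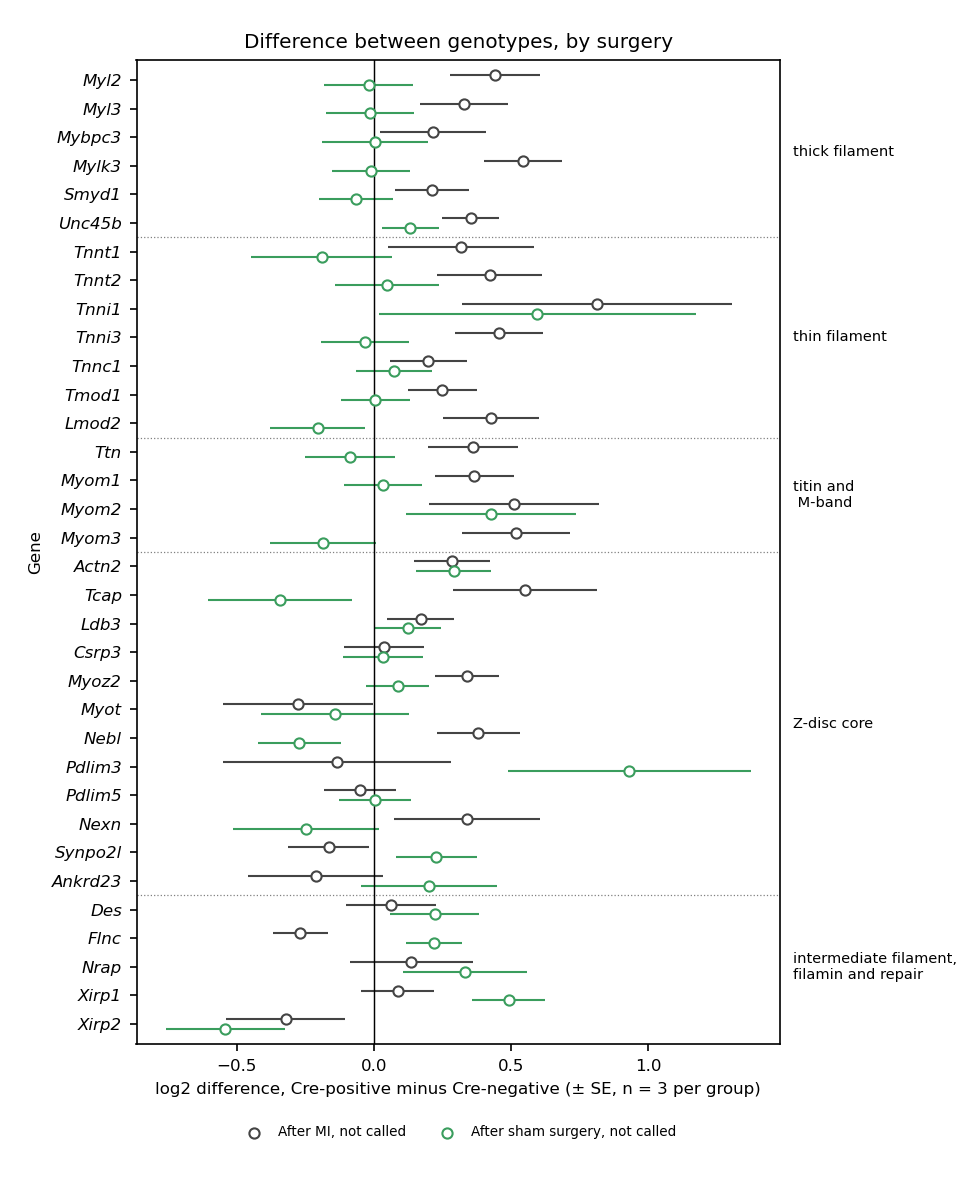
Log2 difference between genotypes, Cre-positive minus Cre-negative (x axis, ± SE, n = 3 per group), of each of the 34 genes (y axis, grouped by role) after MI (black) and after sham surgery (green); all points are open because none passed the test. After MI, 27 black points lie right of 0, among them all of the thick filament, thin filament and titin and M-band genes.

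Whether the response to infarction differed between genotypes was tested as the difference of the 2 injury responses. No gene of the 34, and 0 of all 13678 (0.0%), was called by edgeR's test, and DESeq2 called 0 of the 34 and 34 of all genes, and limma 0 of the 34. Of the 34, 24 values were positive (29 without Cre-positive sham replicate 2), with a median of 0.22 against 0.0051 over all genes. Unadjusted p was under 0.05 for 6 (8.16% of all genes), 5 of them positive, where a positive value is a smaller fall or a larger rise in Cre-positive hearts. The 3 smallest p-values were those of Flnc at -0.49 ± 0.14 (adjusted p = 0.552), Nebl at 0.65 ± 0.21 (adjusted p = 0.553) and Mylk3 at 0.56 ± 0.20 (adjusted p = 0.595). Without that library they were -0.46 ± 0.15 (adjusted p = 0.3), 0.70 ± 0.21 (adjusted p = 0.275) and 0.66 ± 0.18 (adjusted p = 0.269). Nebl had 118, 105 and 120.3 CPM in Cre-negative sham, 71.0, 102 and 113 in Cre-positive sham, 54.9, 58.6 and 63.8 in Cre-negative MI and 69.0, 83.5 and 78.0 in Cre-positive MI libraries 1 to 3. Its Cre-negative MI libraries were all below its Cre-positive ones, and Cre-positive sham replicate 1 was close to these. Calls in 1 genotype and not in the other, such as those of Tcap, Lmod2, Nebl or Pdlim3, are therefore not shown to differ between genotypes.

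Among other sarcomere and Z-disc genes, falls again outnumbered rises. Of 35 such genes 34 were tested, and 18 fell and 4 rose in Cre-negative hearts (median -0.52), against 13 and 4 in Cre-positive hearts (median -0.38). In Cre-negative hearts Myh7b, a slow-type myosin, fell by 1.81 ± 0.21 on the log2 scale, Cmya5 fell by 1.52 ± 0.16 and Myh6 fell by 1.40 ± 0.37, the largest falls of the list. Skeletal actin (Acta1) rose by 2.21 ± 0.51 and 2.78 ± 0.53 in Cre-negative and Cre-positive hearts, and Pdlim7 by 1.65 ± 0.12 and 1.29 ± 0.11. Pdlim1 rose in both genotypes, by 0.64 ± 0.083 and 0.36 ± 0.083. Without Cre-positive sham replicate 2 the Cre-positive values were 2.57 ± 0.58, 1.15 ± 0.11 and 0.32 ± 0.096, with 19 of the 34 falling and 5 rising. Ankrd2, a titin-binding paralog of Ankrd23, had 0 to 0.295 CPM in sham and 0.705 to 1.74 in MI libraries and was called higher in both genotypes. With 3 reads or fewer in each sham library, the size of its change is not given. After MI, 26 of these 34 had the higher Cre-positive value, with a median of 0.17, and none was called between genotypes by edgeR's test.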

How the data were processed

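RNA of 12 left ventricle libraries was sequenced. Per the submitters' processing notes, the tools named were Bowtie2 2.2.5 and RSEM 1.2.12, with build mm10. Per the file headers, each library's deposited file holds RSEM expected counts, FPKM computed by the authors and a transcript length in bases that varies with the isoform mix. How strand was counted is not given in the sources used here, so overlapping antisense reads cannot be told apart. The authors' deposited comparison tables give log2 fold changes and p-values from DESeq2, per the file headers and names.

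Expected counts were rounded to whole numbers (74.0% were whole to 2 decimals) and tested in R 4.3.3 with edgeR 4.0.16. Genes passed filterByExpr (minimum count 10), which kept 13678 and removed 3793. Libraries were scaled by TMM, with factors of 1.04 to 1.14 in MI and 0.895 to 0.979 in sham libraries. The quasi-likelihood fit took the 12 libraries as 4 groups (8 residual degrees of freedom, prior 4.16). For each comparison, p-values were adjusted over the genes tested (Benjamini-Hochberg), and an adjusted p under 0.05 is a call. Alternatives were limma 3.58.1 on log2(FPKM + 1) or log2(FPKM + 0.1), DESeq2 1.42.0 and its size factors, no filter, raw library totals, only the groups compared, presence of Y-linked reads as a covariate, the replicate number as a block, and leaving out each library. The scripts were tested on simulated data. At the lowest depth, 3 counts are 0.292 CPM. No pair of replicates was a duplicate, with at most 1.09% of genes having identical counts.

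Members and lists were chosen with earlier results of these data known. Values in every library are given for the 4 troponin isoform genes and for the 4 called genes with the largest rise and fall in each contrast, or the 3 with the smallest p where none was called. They are also given where 1 library lay more than 2-fold from the next of the same surgery. Promoters to print were chosen after values were seen. Coordinates are those of RefSeq for GRCm38.p6, the assembly of mm10. Per the labels, groups follow genotype and surgery.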

Additional observations from a re-analysis of the deposited data

How the results depend on the processing

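Each result was recomputed under up to 22 other settings, and no log2 fold change of a gene reported for its call changed sign. In Cre-negative hearts, leaving out 1 library gave 2 to 6 risers and 20 to 26 falling genes. In Cre-positive hearts it gave 1 to 4 risers and 14 to 22 falling genes. With limma on log2(FPKM + 1), with or without a filter, or on log2(FPKM + 0.1), 3 rose and 10 fell in Cre-positive hearts, and with raw library totals, a setting added after seeing the data, 2 rose and 10 fell. In Cre-negative hearts both scales gave 7 rising and 19 falling genes, and the Y-linked reads as a covariate 4 and 22. In Cre-positive hearts, fits leaving out 1 library gave 2 risers without Cre-negative MI replicate 1 and 4 without Cre-positive sham replicate 2. DESeq2 called 1 gene between genotypes after MI. Raw totals put the median of all genes at 0.27 and 0.24 (against 0.024 and 0.015) in the 2 injury comparisons and the summed level at 68358 CPM (against 75607) in Cre-positive sham, 45765 (against 41288) in Cre-negative MI and 53606 (against 50535) in Cre-positive MI hearts. The Tnni1 to Tnni3 ratio after MI had an adjusted p of 0.04 by the exact permutation test with FPKM + 1 (difference 1.22) and with the replicate number as a block (1.72). By the same test it was 0.12 to 0.14 without any 1 MI library. It was 0.02 without Cre-positive sham replicate 2 and 0.06 without any other sham library. Leaving out 1 library, the ratio differed by 1.41 to 2.16. Its difference between genotypes ran from -0.084 to 0.67, turning negative without Cre-positive sham replicate 2. The Tnnt1 to Tnnt2 ratio ran from -0.44 to 0.038 after MI, turning positive without Cre-positive sham replicate 1, and from -0.42 to 0.058 between genotypes, turning positive without Cre-positive sham replicate 2. The replicate numbers were not treated as pairs in the main fit. Correlations of same-numbered libraries were -0.15 to 0.29, with 4 of 18 above 0.1, and those of differently numbered ones were -0.31 to 0.22. These ranges overlap and do not decide whether the numbers pair libraries. With the block, 24 fell and 5 rose in Cre-negative and 18 fell and 1 rose in Cre-positive hearts, and the calls of Synpo2l and Tnnt1 were lost. With only the groups compared, 26 fell and 6 rose in Cre-negative hearts, and 14 fell and 1 rose in Cre-positive hearts. Shares of all genes called are not given for the block, the covariate or the fit of only the groups compared. The 3 libraries of a group limit the precision of Tnni1, with 4 to 25 reads. For the other changes the cause was not tested.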

Other observations

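Among 16 skeletal muscle markers, 11 stayed under 2 CPM in every library, among them the skeletal myosins Myh1, Myh2 and Myh4, which reached at most 0.501, 0.398 and 0.295 CPM. The 4 that rose after MI in both genotypes are contractile isoform genes. Tnnt3, fast troponin T, had 0 to 0.796 CPM in sham and 10.1 to 22.9 in MI libraries, a log2 change of 4.69 ± 0.46 in Cre-negative (edgeR's quasi-likelihood test, adjusted p = 4.71e-06) and 5.58 ± 0.51 in Cre-positive hearts (adjusted p = 4.69e-06). Myl1, a fast light chain, had 13.4 to 49.1 CPM in sham and 48.9 to 70.4 in MI libraries. It rose by 0.92 ± 0.26 and 1.66 ± 0.27. Mybpc2, fast myosin binding protein C, rose by 1.25 ± 0.36 and 1.195 ± 0.36, and Tnni2, fast troponin I, by 1.09 ± 0.41 and 1.51 ± 0.42, with at most 3.38 CPM. Mybpc3, Myl3, Tnnt2 and Tnni3, their heart counterparts, are described above.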
